A study of Mus musculus with 6 samples.

Results

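Cells of 1 myeloid line were given IRF8 or KLF4, and the transcripts that separated the 2 outcomes are described here. The cells were Tot2, a progenitor line that came from a mouse with Irf8 knocked out, transduced with the retroviral vector MSCV-IRF8FLAG or MSCV-KLF4FLAG. The comparison takes 4 of the 6 arrays of the series, 2 for each factor, chosen by their sample titles. The other 2 arrays, from cells with the control vector MSCV-puro, entered the same model and give the level from which each factor moved. All groups grew in serum and 5 ng/ml granulocyte-macrophage colony-stimulating factor, and RNA was taken on day 4, after puromycin (2 µg/ml) had been added 48 hr after the transduction. The replicate number marks 2 experiments described as independent. The model is thus a single line from an Irf8 knockout mouse in which each factor was delivered by a vector, and no other line was measured.

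IRF8 is a transcription factor of the interferon regulatory family that binds DNA mostly with partners such as PU.1 at composite ETS and IRF elements, and it is needed for monocytes and some dendritic cells while it holds back the neutrophil fate. KLF4 is a zinc finger factor that binds GC-rich and CACC sequences, is needed for circulating monocytes, and is also known for its work in the skin barrier and in gut epithelium. In mouse progenitors KLF4 is described as acting downstream of IRF8, so the direct comparison asks which part of the monocyte programme each factor brings.

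Of 55681 gene probes 75 were dropped for outlier flags. Between 47.1% and 56.8% of those kept were well above background on an array, and no spot was saturated. The 75th percentile, to which each array was scaled, was an intensity of 436 to 974. Values below are log2 signals relative to that percentile, and differences are IRF8-labelled minus KLF4-labelled on the log2 scale, so a negative value is higher in KLF4-labelled cells. Of the progenitor genes, Myb read 6.11 and 6.15 and Elane 8.90 and 8.53 on the control arrays, while Cd34 was not above background there and Kit was among 6 of 19 listed stem and progenitor genes that were not tested. The Irf8 probe read 0.49 and 0.64 in control, 2.94 and 3.05 in IRF8-labelled and 2.18 and 2.16 in KLF4-labelled cells. It was thus well above background on both control arrays, which had no IRF8 vector. In KLF4-labelled cells it was 3.04-fold above control (log2 1.60 ± 0.10 (SE), adjusted p = 6.06e-04), and in IRF8-labelled cells 5.39-fold. What this signal reads was not tested. The Klf4 probe read -1.62 and -1.28 in control, 4.46 and 4.61 in IRF8-labelled and -1.56 and -1.33 in KLF4-labelled cells. So the Klf4 probe was 63.0-fold brighter on IRF8-labelled than on KLF4-labelled arrays (log2 5.98 ± 0.16 (SE), adjusted p = 6.53e-05), and the KLF4-labelled arrays overlapped the control arrays. Where either probe lies is not given in the sources used here, and neither is shown to read the vector's insert, so each direction below rests on the labels, and the cells are named IRF8-labelled and KLF4-labelled.

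Promoters of some genes at the 2 ends of the comparison are shown here with the motifs searched. Apart from Stfa2 and Stfa1, each gene printed holds a motif, so the set does not show how common the motifs are. No promoter entry was at hand for others, such as Ccr7, Tgm2, H2-Ab1 and Bglap2. The motifs were read on both strands of the 300 bases around each annotated start (250 before, 50 after), as RefSeq gives them on GRCm38.p6. Those for IRF8 were the core of the interferon-stimulated response element (GAAA, any 2 bases, GAAA), the ETS-IRF composite (GGAA, any 2 bases, GAAA) and the IRF-ETS composite (GAAA, any 2 bases, GGAA). GGGTGTGG is a CACC box of the Kruppel-like factors, and CTGATTGG is the Y box, an inverted CCAAT sequence of class II MHC promoters. Both composites can overlap the response element core by sharing a GAAA. Capitals mark the match as it stands on the gene's strand, and where the match lies on the opposite strand its reverse complement is in capitals. The class II genes H2-Eb1 (chr17:34305765-34305852, plus strand) and H2-Aa (chr17:34287827-34287914, minus strand) hold the Y box 62 and 51 bases before the start, and so, 81 bases before it, does St3gal5 (chr6:72097487-72097574, plus strand), which is no class II gene. Tgfbi (chr13:56609352-56609441, plus strand) holds the response element core. Their signal was higher in IRF8-labelled cells.

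H2-Eb1: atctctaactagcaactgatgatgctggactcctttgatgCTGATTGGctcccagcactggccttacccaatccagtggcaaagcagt
H2-Aa: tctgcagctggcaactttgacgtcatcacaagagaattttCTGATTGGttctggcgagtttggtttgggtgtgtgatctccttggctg
St3gal5: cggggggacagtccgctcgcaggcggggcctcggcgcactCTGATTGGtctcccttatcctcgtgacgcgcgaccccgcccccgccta
Tgfbi: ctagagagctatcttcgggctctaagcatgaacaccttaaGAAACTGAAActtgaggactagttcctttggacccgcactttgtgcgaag

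Among genes higher in KLF4-labelled cells, Mall (chr2:127729948-127730037, minus strand) holds the ETS-IRF composite on the opposite strand and Stfa3 (chr16:36455552-36455639, minus strand) holds GGGTGTGG and, further along, the ETS-IRF composite, both on the opposite strand. The neighbouring stefin genes Stfa2 (chr16:36408523-36408610, minus strand) and Stfa1 (chr16:36276901-36276988, plus strand) had no match to any of the 5 motifs in their windows and are shown beside Stfa3, since the 3 stretches are alike and the array probes may read more than 1 of them.

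Mall: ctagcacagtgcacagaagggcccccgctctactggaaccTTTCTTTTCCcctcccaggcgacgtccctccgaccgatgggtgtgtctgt
Stfa3: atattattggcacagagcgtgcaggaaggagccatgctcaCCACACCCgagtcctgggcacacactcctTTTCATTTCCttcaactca
Stfa2: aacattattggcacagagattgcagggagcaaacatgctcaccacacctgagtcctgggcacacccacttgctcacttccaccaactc
Stfa1: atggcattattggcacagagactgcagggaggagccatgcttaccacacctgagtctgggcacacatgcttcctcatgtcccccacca

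A promoter entry was at hand for 10622 of the 13247 genes tested, and among these 3.85% held the response element core. The share was 5.89% of 1036 genes at least 2-fold higher in IRF8-labelled cells and 2.79% of 932 genes at least 2-fold higher in KLF4-labelled cells. The ETS-IRF composite was in 2.78% of tested genes, 3.67% of the former and 3.0% of the latter. The IRF-ETS composite was in 3.46%, 4.05% and 2.15%. GGGTGTGG was in 4.66% of tested genes and in more of both sets, 6.95% and 5.79%, and CTGATTGG in 6.35%, 5.79% and 7.08%. These shares describe letters in a short window and no test was made of them.

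The 2 labelled groups differed widely. Of 13247 genes tested, 6695 (50.5%) passed an adjusted p of 0.05, 3141 (23.7%) higher in IRF8-labelled and 3554 (26.8%) higher in KLF4-labelled cells. The numbers were near each other, but the large differences lay mostly on the IRF8 side: 1325 (10%) against 1203 (9.08%) genes were at least 2-fold apart, 457 against 245 at least 4-fold, 166 against 71 at least 10-fold and 35 against 8 at least 50-fold. In 203 calls only the IRF8-labelled and in 113 only the KLF4-labelled arrays were well above background, and in 2 neither was. Where 1 group was not above background the fold is a lower bound, set against the dimmest signal on each array that was well above background, or the gene's own where that was higher, and these counts use that bound. Of all tested genes, 7892 (59.6%) had a 95% interval inside 2-fold either way, and 2565 of these were called. The median difference of all genes was -0.01. It moved to -0.17 with each array scaled to its median and to -0.16 with spike-in controls, and median scaling left 2079 calls higher in IRF8-labelled cells against 3851 (35.1% of calls in place of 46.9%). Spike-in scaling left 1121 and 1550. Of 270 calls followed across the alternatives 40 were lost with spike-in scaling, mostly differences below 1 on the log2 scale. Against control, 8146 genes (61.5%) were called in IRF8-labelled cells, 3416 (25.8%) of them higher there, and 2544 (19.2%) in KLF4-labelled cells, 1172 (8.85%) of them lower there. Both comparisons use the same control arrays.

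**Figure D1:**
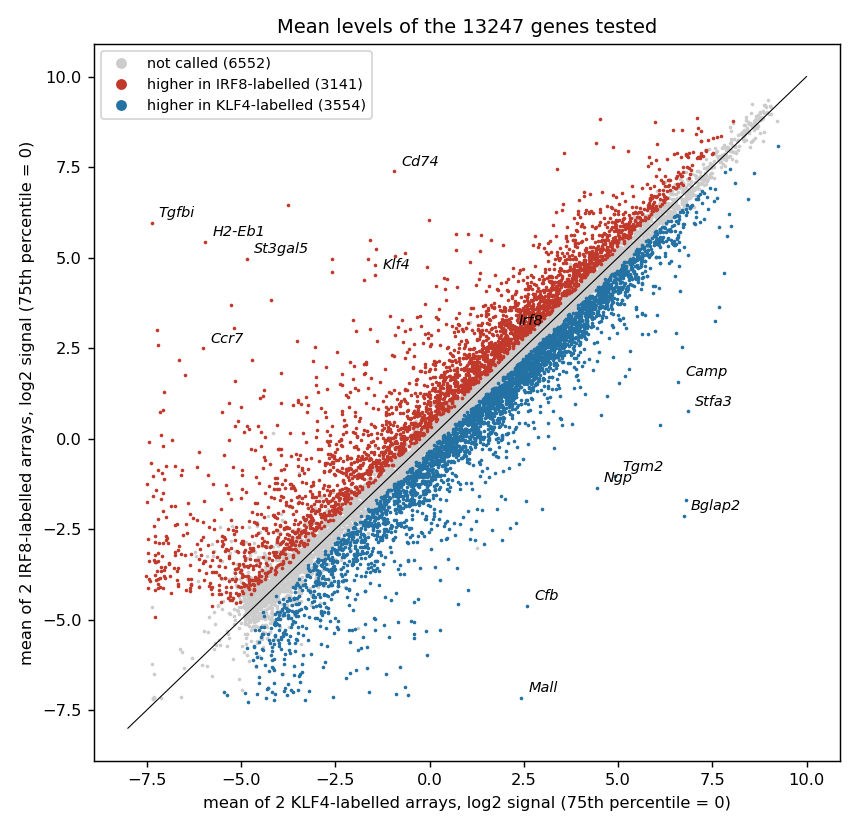
Each point is a gene: the mean log2 signal of the 2 KLF4-labelled arrays (x) against that of the 2 IRF8-labelled arrays (y), relative to the 75th percentile of each array, with the line of equal signal. Red marks the 3141 genes called higher in IRF8-labelled, blue the 3554 called higher in KLF4-labelled cells and grey the rest. Tgfbi and H2-Eb1 lie far above the line, and Mall and Bglap2 far below it.

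The 7 marker genes given for the comparison were at its extremes. Tgfbi encodes a secreted matrix protein that transforming growth factor beta induces and that monocytes make. Its signals were -5.71 and -6.09 in control, 5.95 and 5.97 in IRF8-labelled and -7.12 and -7.62 in KLF4-labelled cells. Only the IRF8-labelled arrays were above background, so Tgfbi was at least 2248-fold higher there (log2 13.33 ± 0.21 (SE), adjusted p = 2.82e-05). H2-Eb1, the class II beta chain that displays peptides to helper T cells, read -6.27 and -7.29 in control, 5.34 and 5.54 in IRF8-labelled and -6.00 and -5.88 in KLF4-labelled cells. It too was above background on the IRF8-labelled arrays alone, at least 1567-fold over the KLF4-labelled floor (log2 11.38 ± 0.34 (SE), adjusted p = 8.75e-05). Ccr7, the receptor that guides dendritic cells to lymph nodes, read -6.36 and -6.54 in control, 2.28 and 2.70 in IRF8-labelled and -6.10 and -5.91 in KLF4-labelled cells. Ccr7 was at least 203-fold higher in IRF8-labelled cells (log2 8.5 ± 0.17 (SE), adjusted p = 3.11e-05), and neither other group was above background. St3gal5, the sialyltransferase that makes ganglioside GM3, read -6.66 and -6.78 in control, 4.95 and 4.99 in IRF8-labelled and -4.76 and -4.93 in KLF4-labelled cells. The KLF4-labelled arrays were just above background and the IRF8-labelled arrays 900.0-fold higher (log2 9.81 ± 0.10 (SE), adjusted p = 2.42e-05).

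The other 3 markers were higher in KLF4-labelled cells, and control cells stood at a different place for each. Mall, a small membrane protein of the MAL family found in lipid rafts and epithelia, read -6.49 and -7.48 in control, -6.79 and -7.53 in IRF8-labelled and 2.32 and 2.53 in KLF4-labelled cells. Only KLF4-labelled arrays rose above background, at least 189-fold over the IRF8-labelled floor (log2 -9.58 ± 0.40 (SE), adjusted p = 1.65e-04). Stfa3, a stefin that blocks cysteine proteases such as cathepsins, read 5.19 and 5.18 in control, 0.71 and 0.79 in IRF8-labelled and 7.0 and 6.71 in KLF4-labelled cells. It stood high in control cells, fell 21.6-fold in IRF8-labelled cells (log2 -4.43 ± 0.12 (SE), adjusted p = 2.08e-05) and rose 3.19-fold in KLF4-labelled cells (log2 1.67 ± 0.12 (SE), adjusted p = 0.00116), which left it 68.9-fold higher in the latter (log2 -6.11 ± 0.12 (SE), adjusted p = 3.11e-05). Tgm2, tissue transglutaminase, which crosslinks proteins, read -2.43 and -2.45 in control, -1.07 and -1.02 in IRF8-labelled and 4.90 and 4.96 in KLF4-labelled cells. Both groups exceeded control, KLF4-labelled cells by 165-fold and IRF8-labelled cells by 2.63-fold, and they differed by 62.8-fold (log2 -5.97 ± 0.08 (SE), adjusted p = 2.42e-05). For all 7 markers no IRF8-labelled array overlapped a KLF4-labelled array, as was so for 10006 (75.5%) of the genes tested.

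**Figure D2:**
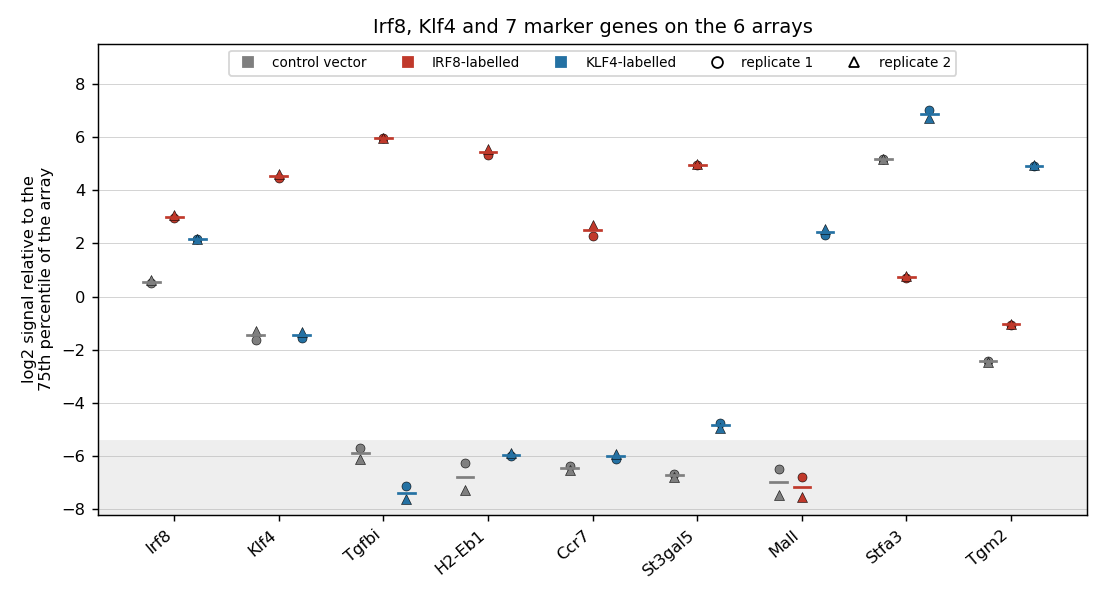
Log2 signal of Irf8, Klf4 and the 7 markers on each of the 6 arrays, relative to the 75th percentile of the array. Circles are replicate 1, triangles replicate 2 and bars group means, and the grey band lies under the lowest signal well above background on any array (-5.42). Klf4 is high on the IRF8-labelled arrays only, and Stfa3 and Tgm2 are highest on the KLF4-labelled arrays.

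Class II presentation genes and St3gal5, given above, led the 12 largest differences toward IRF8 among genes well above background on all 4 arrays compared. H2-Ab1, the class II beta chain of the A molecule, read -5.16 and -7.32 in control, 6.28 and 6.61 in IRF8-labelled and -3.69 and -3.80 in KLF4-labelled cells, a difference of 1166-fold (log2 10.19 ± 0.69 (SE), adjusted p = 4.69e-04). Cd74, the invariant chain that escorts class II molecules, read -3.10 and -3.59 in control, 7.46 and 7.33 in IRF8-labelled and -0.94 and -0.95 in KLF4-labelled cells. Cd74 was above control in both groups and 324-fold higher in IRF8-labelled cells (log2 8.34 ± 0.18 (SE), adjusted p = 3.22e-05), and H2-DMa, which loads peptides, was higher by 6.66 on the log2 scale. Marcks, a protein kinase C substrate at the membrane, was 258-fold higher, P2ry6, a receptor for uridine diphosphate, 185-fold, and Aif1, the calcium-binding protein IBA1 of macrophages, 146-fold. Jaml, an adhesion molecule of leukocytes, was 135-fold higher, the galactose-binding lectin gene Clec10a 97.4-fold, and the receptor gene Gpr171 70.4-fold. Ccnd1, cyclin D1, read -6.64 and -5.42 in control, 4.74 and 4.85 in IRF8-labelled and -1.43 and -1.47 in KLF4-labelled cells, and Niban1 read -2.84 and -2.70 in control, 2.72 and 2.65 in IRF8-labelled and -3.44 and -3.57 in KLF4-labelled cells. Ccnd1 was thus 75.9-fold and Niban1 73.3-fold higher, the first above control in both groups and the second below control in KLF4-labelled cells (log2 -0.74 ± 0.10 (SE), adjusted p = 0.00996). Over these 11 genes SE reached 0.69 and adjusted p 4.69e-04. Among genes above background on IRF8-labelled arrays alone, the largest bounds after Tgfbi and H2-Eb1 were those of the chemokine gene Ccl17 (at least 471-fold), the class II gene H2-Aa (at least 289-fold), the reticulon gene Rtn1 (at least 217-fold), Ccr7, the phospholipase B-like gene Plbd1 (at least 164-fold) and the adaptor gene Apba1 (at least 123-fold). In these 5 genes SE reached 0.42 and adjusted p 2.47e-04.

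The largest differences toward KLF4 held genes that rose over control in KLF4-labelled cells and genes that fell in IRF8-labelled cells. Among the former were the osteocalcin genes of bone: Bglap2 read -5.40 and -4.75 in control, -2.18 and -2.09 in IRF8-labelled and 6.90 and 6.58 in KLF4-labelled cells, 469-fold higher in KLF4-labelled cells (log2 -8.87 ± 0.24 (SE), adjusted p = 6.84e-05), and Bglap3 was 363-fold higher. Their probes may read more than 1 osteocalcin gene. Thy1, a surface glycoprotein of T cells and fibroblasts, read -3.68 and -3.14 in control, -4.01 and -4.34 in IRF8-labelled and 0.95 and 1.09 in KLF4-labelled cells (36.7-fold, log2 -5.20 ± 0.22 (SE), adjusted p = 1.62e-04). The adhesion adaptor gene Lims2 read -4.45 and -4.30 in control, -2.34 and -2.32 in IRF8-labelled and 2.28 and 2.32 in KLF4-labelled cells (24.7-fold). Cers3, which makes ceramides of the skin barrier, was 30.6-fold higher by its brightest probe (log2 -4.94), and a second tested probe gave -2.96. Tmem119, a membrane protein used as a marker of microglia, read 1.09 and 1.17 in control, -2.44 and -2.48 in IRF8-labelled and 2.12 and 2.16 in KLF4-labelled cells, above control in KLF4-labelled and below it in IRF8-labelled cells (24.3-fold apart). Stfa2 fell in IRF8-labelled cells alone: it read 6.11 and 6.14 in control, 0.30 and 0.47 in IRF8-labelled and 6.18 and 6.04 in KLF4-labelled cells. KLF4-labelled and control arrays overlapped, and IRF8-labelled arrays were 52.9-fold below the KLF4-labelled ones. The granule genes Ngp and Camp, whose proteins fill late neutrophil granules, were 55.2-fold and 32.5-fold apart, and the neutrophil surface gene Cd177 26.2-fold. Against control all 3 fell in IRF8-labelled cells, and Camp and Cd177 fell by less in KLF4-labelled cells (log2 -0.85 and -1.11, adjusted p = 0.0310 and 0.00651). Among these KLF4-side genes SE reached 0.48 and adjusted p 0.00122. Genes above background on KLF4-labelled arrays but not on IRF8-labelled arrays included, after Mall, the secreted carbonic anhydrase gene Car6 (at least 33.8-fold), the formyl peptide receptor gene Fpr1 (at least 26.3-fold), the junctional adhesion gene Jam2 (at least 26.0-fold), the keratinocyte gene Krtdap (at least 23.8-fold), the complement receptor gene C5ar1 (at least 22.4-fold), the carboxylesterase gene Ces2b (at least 20.4-fold) and Ambp, the precursor of bikunin (at least 19.0-fold). For these bounded genes SE reached 0.38 and adjusted p 4.01e-04. Jam2 and Ces2b were above background in control cells as well and fell in IRF8-labelled cells, while Car6, Krtdap and Ambp were not.

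**Figure D3:**
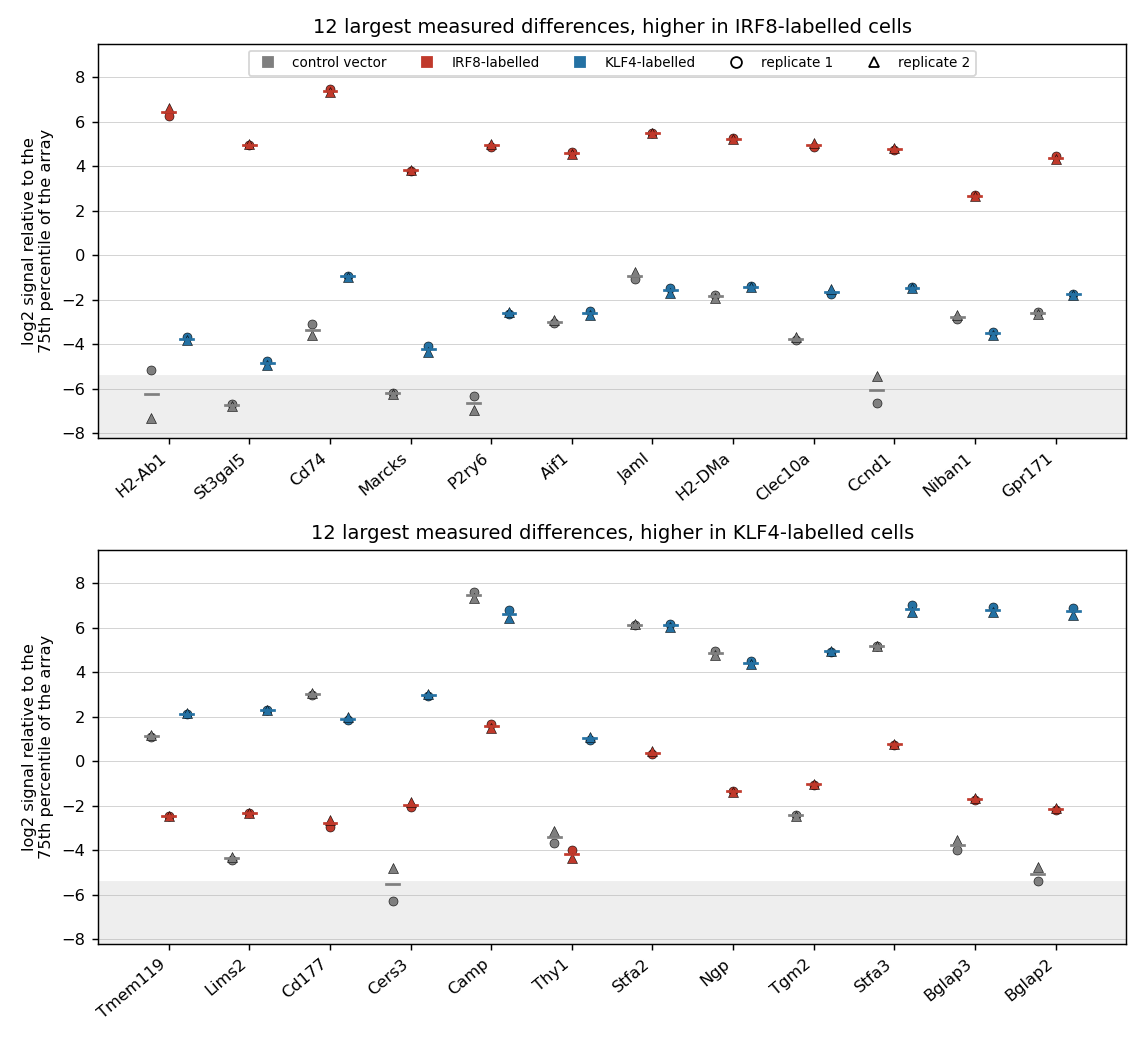
Log2 signal on the 6 arrays, relative to the 75th percentile, of the 12 genes with the largest difference in each direction among those well above background on all 4 IRF8-labelled and KLF4-labelled arrays. Colours, symbols and the grey band are as for the markers. In the upper panel the IRF8-labelled arrays lie above all others for every gene, while in the lower panel control arrays lie near the KLF4-labelled ones for Camp, Ngp, Stfa2 and Cd177 and near or below the IRF8-labelled ones for Bglap2, Bglap3, Lims2 and Thy1.

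Antigen presentation on class II molecules had the largest positive median of the 46 gene lists. Over all genes tested, 23.7% were higher in IRF8-labelled and 26.8% in KLF4-labelled cells, and each list's counts stand beside these shares. Of 14 class II presentation genes tested, 9 were higher in IRF8-labelled and 3 in KLF4-labelled cells (median difference 3.58, against -0.01 for all genes), and their median lay 3.66 from control in IRF8-labelled and 0.37 in KLF4-labelled cells. The chains H2-Aa, H2-Ab1 and H2-Eb1, the invariant chain Cd74 and the loading genes H2-DMa, H2-DMb1 (3.40) and H2-DMb2 (at least 21.0-fold) made up most of them, with Ifi30, the lysosomal thiol reductase (1.86), and H2-Ob, a brake on loading (3.76). Ciita, the master activator of class II genes, was faint: it read -3.74 and -4.56 in control, -2.63 and -3.20 in IRF8-labelled and -3.27 and -4.72 in KLF4-labelled cells, and its difference did not pass (1.08 ± 0.56 (SE), adjusted p = 0.171), except with the replicate number as a block (0.0235). The 3 higher in KLF4-labelled cells were H2-Eb2 (-0.71) and the class II regulators Rfxap and Rfxank (-0.46 and -0.35), and with spike-in scaling none of the 3 passed. In RNA from whole cultures, fewer cells of a kind and less RNA in each cell cannot be told apart. Of 21 class I and peptide loading genes 15 were higher in IRF8-labelled and 1 in KLF4-labelled cells (median difference 0.64; 6 and 0 with spike-in scaling). Tapbp, tapasin, read 4.32 and 4.13 against 2.65 and 2.58 (3.05-fold), the class I activator gene Nlrc5 was 2.65-fold higher by its brightest probe (log2 1.40, the other 0.35), and the immunoproteasome genes Psmb8 and Psmb9 2.57-fold and 2.44-fold. The class I heavy chains lay closer, H2-K1 at 0.28 (adjusted p = 0.0657, 0.0468 with the replicate block) and H2-D1 at 0.66, and B2m at 0.22 (adjusted p = 0.248). For the called genes of this paragraph SE reached 0.69 and adjusted p 0.0450.

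Costimulatory and checkpoint genes and markers of dendritic cells went with class II. Of 11 costimulatory and checkpoint genes 10 were higher in IRF8-labelled and 0 in KLF4-labelled cells (median difference 1.96, with 7 and 0 under spike-in scaling). Their median lay 3.92 from control in IRF8-labelled and 1.07 in KLF4-labelled cells. Cd83, a maturation marker of dendritic cells, read -6.59 and -7.56 in control, -0.09 and -0.09 in IRF8-labelled and -7.18 and -7.68 in KLF4-labelled cells and was at least 34.0-fold higher. Tnfsf9 (4-1BB ligand), Cd40 and Havcr2 (TIM-3) were 13.4-fold, 11.5-fold and 7.62-fold higher, with KLF4-labelled arrays above background and control arrays below it, and Cd86 was at least 3.87-fold higher (adjusted p 0.0552 with normexp). Among these 5 genes SE reached 0.54 and adjusted p 0.0100. Cd274 (PD-L1) was the member not called: it read -1.64 and -1.50 in control, 2.96 and 3.04 in IRF8-labelled and 2.67 and 2.86 in KLF4-labelled cells, a difference of 0.23 ± 0.11 (SE), adjusted p = 0.140 (0.0246 with the replicate block), with a 95% interval of -0.05 to 0.51. Of 16 dendritic cell markers 12 were higher in IRF8-labelled and 0 in KLF4-labelled cells (median difference 2.74, 2.39 with dim genes at their bound and 1.26 with normexp). Itgax, the integrin CD11c, read -6.34 and -7.02 in control, 5.04 and 5.05 in IRF8-labelled and -0.98 and -0.85 in KLF4-labelled cells, 62.4-fold apart (log2 5.96 ± 0.23 (SE), adjusted p = 1.35e-04). Clec9a, a lectin of the conventional type 1 dendritic cell, was at least 12.1-fold higher and its regulator gene Batf3 7.29-fold, while Xcr1 and Cadm1 of the same cell were not tested. Zbtb46 and Flt3 were higher in IRF8-labelled cells by 1.75 and 1.56 at low signal, Flt3 with 1 KLF4-labelled array above background. The plasmacytoid markers Siglech and Bst2 were not called, at 0.15 (95% interval -0.41 to 0.71) and 0.18 (-0.19 to 0.55). The summed signal of the 16 markers was 221 to 242 times the 75th percentile on IRF8-labelled arrays. It was 99.9 to 132 on KLF4-labelled and 124 to 140.0 on control arrays. Itgax, Ccr7 and Ccl17 were not above background on control arrays, so the sum there came from other members. The sum is therefore no measure of a dendritic cell fraction. What part such a fraction has in the class II result was not tested.

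Chemokines were higher in IRF8-labelled cells, and their receptors went both ways. Of 10 CC chemokine genes 6 were higher in IRF8-labelled and 0 in KLF4-labelled cells (median difference 1.98). The monocyte attractants Ccl2, Ccl7 and Ccl12 were 31.0-fold, 46.7-fold and at least 21.3-fold higher. Ccl2 read -6.22 and -6.34 in control, 5.67 and 5.65 in IRF8-labelled and 0.73 and 0.67 in KLF4-labelled cells, above control by at least 1418-fold and at least 45.7-fold. Ccl17, a chemokine of dendritic cells and alternatively activated macrophages, was not above background on control or KLF4-labelled arrays. Ccl3, Ccl6 and Ccl9 were not called between the groups (-0.33, 0.40 and -0.15; for Ccl3 adjusted p = 0.122, and 0.0152 with the replicate block), and Ccl6 read 1.12 and 1.35 in control, 9.09 and 8.49 in IRF8-labelled and 8.66 and 8.11 in KLF4-labelled cells, far above control in both. Both CXC chemokine genes tested, of 12 listed, were higher in IRF8-labelled cells, Cxcl16 by 6.49-fold and Cxcl10 by 1.75-fold (adjusted p = 0.00483, 0.238 with spike-in scaling). Of 11 chemokine receptor genes 5 were higher in IRF8-labelled and 4 in KLF4-labelled cells. IRF8-labelled cells were higher for Ccr2 (16.5-fold) and Ccr1 (6.0-fold), receptors of inflammatory chemokines (SE reached 0.48 and adjusted p 0.00951), with 1 KLF4-labelled array above background for Ccr1. Higher in KLF4-labelled cells were Cx3cr1, the fractalkine receptor of patrolling monocytes (-1.09 ± 0.18 (SE), adjusted p = 0.00638), the homing receptor genes Cxcr4 (-1.42) and Cxcr2 (at least 1.89-fold), and the decoy receptor gene Ccrl2 (-1.35). Cx3cr1 read -5.42 and -5.30 in control, -0.89 and -0.44 in IRF8-labelled and 0.31 and 0.53 in KLF4-labelled cells, above control in both.

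Monocyte and macrophage markers were more often higher in IRF8-labelled cells. Of 29 tested, 18 (62.1%) were higher in IRF8-labelled and 8 (27.6%) in KLF4-labelled cells (median difference 1.13). Over all genes tested the shares were 23.7% and 26.8%, so the KLF4-labelled share was near that of all genes. Against control the median of the markers was 4.41 in IRF8-labelled and 2.38 in KLF4-labelled cells. On the IRF8 side were Mrc1, the mannose receptor, which read -1.10 and -0.96 in control, 5.62 and 5.65 in IRF8-labelled and 1.35 and 1.40 in KLF4-labelled cells (19.2-fold, log2 4.26 ± 0.09 (SE), adjusted p = 3.22e-05), the high-affinity Fc receptor gene Fcgr1 (29.9-fold), the lipase gene Pla2g7 (at least 38.6-fold) and Ccr2. Among genes on the KLF4 side, Adgre4, an adhesion receptor of nonclassical monocytes and macrophages, read -6.25 and -7.25 in control, -6.56 and -7.34 in IRF8-labelled and -3.41 and -3.55 in KLF4-labelled cells and was at least 3.15-fold higher (adjusted p 0.166 with normexp). Treml4, another gene of nonclassical monocytes, read -2.35 and -2.02 in control, -2.62 and -2.03 in IRF8-labelled and 0.44 and 0.39 in KLF4-labelled cells (6.65-fold). Spn (CD43), another marker of these cells, was 3.44-fold higher in KLF4-labelled cells, where it lay near control (5.43 and 5.47 in control, 3.23 and 3.32 in IRF8-labelled and 5.13 and 4.99 in KLF4-labelled cells). Ace, which the same monocytes carry, was not called (1.06 ± 0.76 (SE), adjusted p = 0.302), and Ly6c1 and Chil3, genes of classical monocytes and myeloid precursors, were higher in KLF4-labelled cells, where they lay near control (-1.28 and -1.83). Mertk, the receptor for uptake of dying cells, was at least 1.53-fold higher in KLF4-labelled cells, a call lost under 9 alternatives. With Cx3cr1, for these KLF4-side markers SE reached 0.69 and adjusted p 0.0455. Gpnmb was not called: it read -6.61 and -7.58 in control, 4.52 and 4.77 in IRF8-labelled and 4.02 and 4.17 in KLF4-labelled cells.

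Receptors for microbes and debris were mostly higher in IRF8-labelled cells. Of 17 Toll-like receptor and adaptor genes 14 were higher in IRF8-labelled and 0 in KLF4-labelled cells (median difference 1.13; 7 and 0 with spike-in scaling). Ly86 (MD-1), partner of the lipopolysaccharide regulator RP105, read 1.62 and 1.88 in control, 5.50 and 5.78 in IRF8-labelled and 0.94 and 1.11 in KLF4-labelled cells, 24.5-fold apart (log2 4.61 ± 0.15 (SE), adjusted p = 1.07e-04), and its partner gene Cd180 differed by 2.30. Tlr12 and Tlr11, sensors of a parasite profilin, were at least 16.6-fold and at least 3.05-fold higher (for Tlr11 adjusted p 0.103 with normexp) and the lipopeptide receptor gene Tlr1 7.94-fold. Tlr4 was not called (-0.16 ± 0.11 (SE), adjusted p = 0.273). Of 21 C-type lectin and scavenger receptor genes 13 and 5 were higher in the IRF8-labelled and KLF4-labelled cells (median difference 1.20). Beside Clec10a and Mrc1, the scavenger receptor gene Msr1 was 9.90-fold higher in IRF8-labelled cells. Olr1, a receptor for oxidised lipoprotein, read 0.91 and 1.35 in control, -2.50 and -2.05 in IRF8-labelled and 1.09 and 1.38 in KLF4-labelled cells and was 11.4-fold higher in KLF4-labelled cells, overlapping control. Also higher there were Clec12a (at least 1.89-fold) and Clec5a, Stab1 and Clec4e (-1.18, -0.92 and -0.86). Of 8 Fc receptor genes 5 were higher in IRF8-labelled cells, among them Fcgr3 (3.55-fold) and the neonatal receptor gene Fcgrt (3.93-fold). Fcgr4, the activating receptor of nonclassical monocytes and neutrophils, alone was higher in KLF4-labelled cells: it read 0.05 and 0.13 in control, -0.48 and -0.37 in IRF8-labelled and 1.62 and 1.73 in KLF4-labelled cells (4.30-fold, log2 -2.10 ± 0.09 (SE), adjusted p = 1.89e-04). Among these receptors, for the called genes without their own p, SE reached 0.37 and adjusted p 0.0107.

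Lysosomal genes were also higher in IRF8-labelled cells, by less than class II genes. Of 15 cathepsin and legumain genes 10 were higher in IRF8-labelled and 1 in KLF4-labelled cells (median difference 0.65; 6 and 1 with spike-in scaling); against control the median was 2.08 and 0.69. Ctsh read -0.44 and -0.26 in control, 5.99 and 6.08 in IRF8-labelled and -0.07 and 0.06 in KLF4-labelled cells, 65.9-fold apart (log2 6.04 ± 0.11 (SE), adjusted p = 2.86e-05), and KLF4-labelled arrays were near control. Ctss, which trims the invariant chain, read -5.50 and -6.27 in control, 8.15 and 8.17 in IRF8-labelled and 4.28 and 4.57 in KLF4-labelled cells, so that both groups lay far above control and 13.3-fold apart, and Lgmn and Ctsc were 14.5-fold and 6.10-fold apart. The member on the KLF4 side was Ctsg, a serine protease of neutrophil granules (-1.15 ± 0.30 (SE), adjusted p = 0.0281). Of 36 other lysosomal genes 25 were higher in IRF8-labelled and 4 in KLF4-labelled cells (median difference 0.75; 8 and 2 with spike-in scaling), led by the saposin precursor gene Psap (6.80-fold), and with the cholesterol exporter gene Npc1 3.21-fold higher. Acp5, tartrate-resistant acid phosphatase, was 3.17-fold higher in KLF4-labelled cells. Of 15 complement genes 8 were higher in IRF8-labelled and 5 in KLF4-labelled cells. C1qa, C1qb and C1qc were higher in IRF8-labelled cells, C1qc by at least 13.5-fold. Cfb, factor B of the alternative pathway, read -6.28 and -7.27 in control, -4.41 and -4.82 in IRF8-labelled and 2.63 and 2.54 in KLF4-labelled cells, 147-fold higher in KLF4-labelled cells (log2 -7.20 ± 0.35 (SE), adjusted p = 2.11e-04, 1 IRF8-labelled array above background), and C4b, Cfd and C3 were higher there too (-4.19, -2.43 and -1.45), beside C5ar1 (at least 22.4-fold). For the cathepsin, lysosomal and complement genes without their own statistics here SE reached 0.64 and adjusted p 0.00494.

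Neutrophil genes were mostly lower in IRF8-labelled than in KLF4-labelled or control cells. In KLF4-labelled cells the late ones moved both ways from control. Of 21 late granule and surface genes 18 were higher in KLF4-labelled and 2 in IRF8-labelled cells (median difference -3.94, -3.70 with bounds, -2.37 with normexp). Against control 17 fell and 3 rose in IRF8-labelled cells (median -4.63), and 7 fell and 5 rose in KLF4-labelled cells (median -0.42). Over all genes tested 35.7% fell and 25.8% rose in IRF8-labelled cells, and 8.85% fell and 10.4% rose in KLF4-labelled cells. Ngp read 4.94 and 4.76 in control, -1.34 and -1.37 in IRF8-labelled and 4.50 and 4.36 in KLF4-labelled cells, and S100a8, a chain of calprotectin, 7.61 and 7.44 in control, 2.52 and 2.54 in IRF8-labelled and 6.84 and 6.53 in KLF4-labelled cells. Itgb2l and Padi4, which citrullinates histones, were 47.0-fold and at least 15.8-fold higher in KLF4-labelled cells, with 1 IRF8-labelled array above background for Itgb2l. The formyl peptide receptor genes were above control in KLF4-labelled cells. Fpr1 read -4.42 and -4.24 in control, -5.50 and -5.54 in IRF8-labelled and -0.30 and -0.54 in KLF4-labelled cells (log2 3.91 ± 0.12 (SE), adjusted p = 8.17e-05, against control). Fpr2 read -6.23 and -6.87 in control, -5.50 and -4.78 in IRF8-labelled and -1.28 and -1.14 in KLF4-labelled cells (log2 5.34 ± 0.31 (SE), adjusted p = 5.57e-04, against control). Anxa1 and Arg2 were the 2 higher in IRF8-labelled cells (0.76 and 0.83; neither passed with spike-in scaling), and the granulocyte receptor gene Csf3r was not called (0.05 ± 0.16 (SE), adjusted p = 0.807, 95% interval -0.35 to 0.45). Of 10 primary granule genes, made earlier in the lineage, 7 were higher in KLF4-labelled cells and Nkg7 was higher in IRF8-labelled cells (median difference -1.58). The probes of Nkg7 disagreed: its brightest gave 0.81 and the mean over both -1.38. Prss57, Serpinb1a, Elane and Prtn3 were 11.1-fold, 5.98-fold, 4.38-fold and 3.62-fold apart, and Mpo was not called (-0.62 ± 0.36 (SE), adjusted p = 0.214; 0.0118 with the replicate block). The 4 stefin A genes tested were higher in KLF4-labelled cells, Stfa1 by 19.9-fold and Stfa2l1 by 11.3-fold beside Stfa2 and Stfa3, while the protease inhibitor genes Cstb, Cst3 and Cst6 were higher in IRF8-labelled cells (1.25, 1.76 and 1.62). Over the granule and stefin genes SE reached 0.26 and adjusted p 0.0249. Of the transcription factors of granulocytes, Gfi1 was 6.12-fold, Cebpe 3.54-fold and Cebpa 1.95-fold higher in KLF4-labelled cells, where Gfi1 read 6.01 and 6.04 beside 6.22 and 6.17 in control and 3.24 and 3.59 in IRF8-labelled cells.

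**Figure D4:**
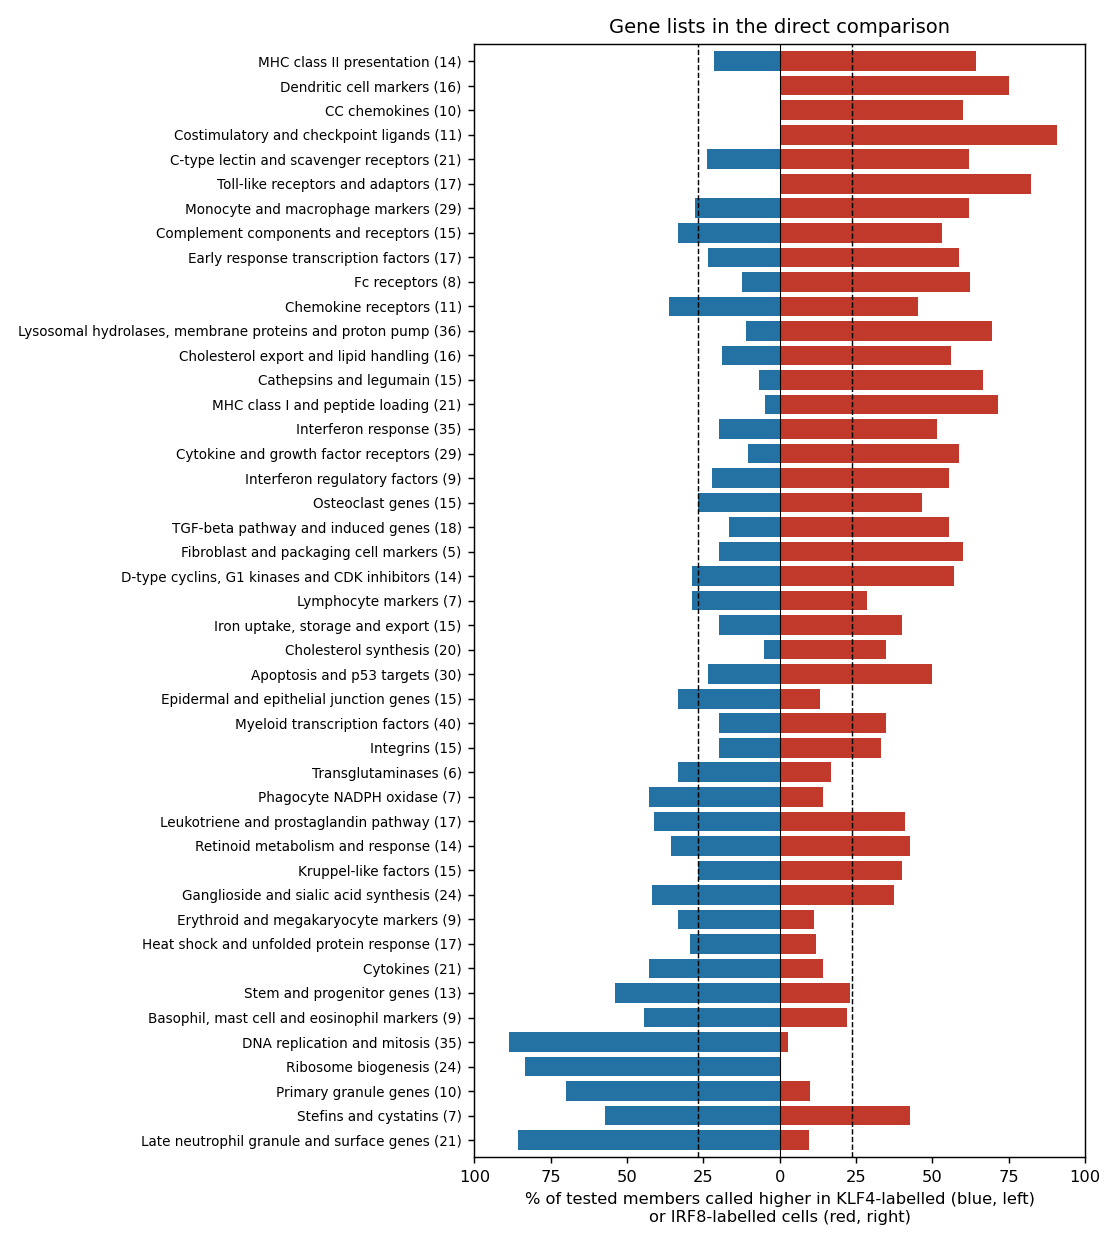
Share (%) of the tested members of each gene list (number tested in brackets) called higher in IRF8-labelled (red, right) or KLF4-labelled cells (blue, left). Dashed lines mark the shares over all 13247 genes, 23.7% and 26.8%. Of lists with more than 2 genes tested, the costimulatory and checkpoint list (10 of 11) reaches farthest to the right. DNA replication (31 of 35) and late neutrophil genes (18 of 21) reach farthest to the left.

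Cytokine genes were more often higher in KLF4-labelled and their receptors in IRF8-labelled cells. Of 21 cytokine genes 9 (42.9%) were higher in KLF4-labelled and 3 (14.3%) in IRF8-labelled cells. The shares over all genes tested were 26.8% and 23.7%. The median difference was -0.42, and 7 and 0 passed with spike-in scaling. Il1rn, the interleukin 1 receptor antagonist, read -3.64 and -3.78 in control, -1.05 and -1.38 in IRF8-labelled and 1.24 and 0.97 in KLF4-labelled cells, 5.00-fold apart (log2 -2.32 ± 0.16 (SE), adjusted p = 5.03e-04). Il1b read -6.34 and -7.14 in control, -2.95 and -2.63 in IRF8-labelled and -1.08 and -0.84 in KLF4-labelled cells (-1.83), and Il1a was above background in KLF4-labelled cells alone, at least 2.41-fold higher (adjusted p = 0.00255; 0.196 with normexp). Pdgfb and Il12a were 9.24-fold and at least 3.56-fold higher, calls that were lost when single arrays were left out (adjusted p up to 0.0663 and 0.0861, both without the second KLF4-labelled array). Tgfb1, Tnfsf14 and Tnfsf13b were higher in IRF8-labelled cells (0.88, 0.88 and 0.97). Of 29 cytokine and growth factor receptor genes 17 (58.6%) were higher in IRF8-labelled and 3 (10.3%) in KLF4-labelled cells (median difference 0.62). The interleukin 33 receptor gene Il1rl1 read -6.58 and -5.91 in control, 1.62 and 2.02 in IRF8-labelled and -4.00 and -3.87 in KLF4-labelled cells (54.1-fold), the interleukin 7 receptor gene Il7r was 8.10-fold higher and the signalling interleukin 1 receptor gene Il1r1 at least 3.43-fold, whereas Il21r was 8.56-fold higher in KLF4-labelled cells. Leukotriene and prostaglandin genes divided evenly (7 and 7 of 17, 41.2% each way). Alox5, 5-lipoxygenase, read -6.56 and -5.52 in control, -6.85 and -5.80 in IRF8-labelled and -1.84 and -1.50 in KLF4-labelled cells, so it was above background in KLF4-labelled cells alone (at least 11.0-fold), and Ptgs1, Pla2g4a, Ltc4s and Lta4h lay on its side (-2.58, -1.56, -1.38 and -1.02). The prostaglandin D2 synthase gene Hpgds (at least 10.5-fold), the leukotriene receptor gene Cysltr1 (10.4-fold) and Alox5ap (1.12), which presents substrate to 5-lipoxygenase, were higher in IRF8-labelled cells. Among the cytokine, receptor and lipid mediator genes SE reached 0.92 and adjusted p 0.0201.

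Genes of matrix, adhesion and epithelium differed in both directions. Of 18 genes of the transforming growth factor beta pathway 10 were higher in IRF8-labelled and 3 in KLF4-labelled cells (median difference 0.55; 4 and 2 with spike-in scaling). Beside Tgfbi, the receptor gene Acvrl1 read -2.68 and -2.88 in control, 1.95 and 2.05 in IRF8-labelled and -1.89 and -2.09 in KLF4-labelled cells (15.9-fold) and the inhibitor of differentiation Id3 was 14.7-fold higher. Thbs1, thrombospondin, which activates the growth factor, read 2.77 and 3.07 in control, 2.88 and 3.07 in IRF8-labelled and 5.99 and 5.97 in KLF4-labelled cells: IRF8-labelled cells overlapped control and KLF4-labelled cells were 8.0-fold higher (log2 -3.00 ± 0.14 (SE), adjusted p = 1.92e-04). Integrin genes numbered 15, 5 (33.3%) higher in IRF8-labelled and 3 (20%) in KLF4-labelled cells, or 2 and 2 with spike-in scaling. Itga1, the collagen receptor chain, was 48.0-fold higher in IRF8-labelled cells by the brighter of its probes (log2 5.59, the other 4.27), and Itgb3, the vitronectin receptor chain of platelets and osteoclasts, at least 9.43-fold higher in KLF4-labelled cells. KLF4 is known for barrier genes of skin. Of 15 epidermal and junction genes tested (of 36 listed), 5 (33.3%) were higher in KLF4-labelled and 2 (13.3%) in IRF8-labelled cells. Over all genes tested the shares were 26.8% and 23.7%, so the KLF4-labelled share was near that of all genes. The list's median was 0.23. Mall was the largest. Evpl, envoplakin, read 0.73 and 0.94 in control, -1.20 and -1.07 in IRF8-labelled and 0.50 and 0.69 in KLF4-labelled cells (3.32-fold), and Tgm1, Tjp3 and St14 differed by -0.91, -0.52 and -0.41. Spint1 and Jup were higher in IRF8-labelled cells, by 3.74-fold and at least 2.50-fold (adjusted p = 0.00197 and 0.0290; for Jup 0.0511 with the replicate block, 0.257 with normexp and up to 0.129 with an array left out). Of 6 transglutaminase genes, Tgm2 and Tgm1 were higher in KLF4-labelled and F13a1, the coagulation factor XIII chain of monocytes, in IRF8-labelled cells (2.11-fold; adjusted p 0.0748 with spike-in scaling). Tgm2 is a classic target of retinoic acid. Of 14 retinoid genes, Tgm2 among them, 6 (42.9%) were higher in IRF8-labelled and 5 (35.7%) in KLF4-labelled cells. The counts were 3 and 3 with spike-in scaling, 3 and 5 with median scaling and 3 and 4 with normexp. Cyp26a1, which degrades retinoic acid, read 1.64 and 1.60 in control, -1.97 and -1.98 in IRF8-labelled and 1.41 and 1.40 in KLF4-labelled cells, low in IRF8-labelled cells only (10.4-fold), while Cyp26b1, Dhrs3 and the receptor gene Rara were higher there (2.28, 2.17 and 1.89). For these genes without their own p SE reached 0.36 and adjusted p 0.0176.

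The other genes of ganglioside synthesis differed less than St3gal5. Of 24 genes of ganglioside and sialic acid synthesis and breakdown 9 (37.5%) were higher in IRF8-labelled and 10 (41.7%) in KLF4-labelled cells. The shares over all genes tested were 23.7% and 26.8%. The median difference was -0.06, and 5 and 3 passed with spike-in scaling. Genes for steps before and after GM3 went both ways. The glucosylceramide synthase gene Ugcg (lost with spike-in scaling, adjusted p = 0.205), B4galt6 and B4galnt1, which makes GM2, were higher in KLF4-labelled cells (-0.50, -1.27 and -1.09). B4galt5, which makes the same lactosylceramide as B4galt6, was higher in IRF8-labelled cells (0.61; adjusted p = 0.416 with spike-in scaling), and St8sia1, which makes GD3, was not called (0.21 ± 0.31 (SE), adjusted p = 0.615). St3gal6 was 2.43-fold higher in KLF4-labelled cells and above control in both. The lysosomal breakdown genes Hexa, Gm2a and Psap were higher in IRF8-labelled cells, Gm2a by 5.70-fold, and the sialidase genes Neu1 and Neu3 were higher in KLF4-labelled cells (-0.54 and -0.82). In this pathway SE reached 0.27 and adjusted p 0.0337.

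Transcription factors differed in several families. Over all genes tested 23.7% were higher in IRF8-labelled and 26.8% in KLF4-labelled cells. In the lists here the IRF8-labelled share ran from 35% to 58.8%. The KLF4-labelled share ran from 20% to 26.7%, near or below that of all genes. Of 9 interferon regulatory factor genes 5 were higher in IRF8-labelled and 2 in KLF4-labelled cells (3 and 0 with spike-in scaling). Irf5, a driver of inflammatory genes, read -2.04 and -2.63 in control, 4.74 and 4.71 in IRF8-labelled and -0.06 and -0.07 in KLF4-labelled cells. The 2 groups were 27.8-fold apart for Irf5 (log2 4.79 ± 0.20 (SE), adjusted p = 1.65e-04). On the IRF8 side Irf9 was 3.59-fold and Irf2 3.08-fold higher. Irf8 itself differed by 0.83 ± 0.10 (SE), adjusted p = 0.00210, a call lost with spike-in scaling (adjusted p = 0.209). Irf1 and Irf3 were higher in KLF4-labelled cells (-0.71 and -0.36), and Irf4 was not called (0.32 ± 0.33 (SE), adjusted p = 0.464). Of 15 Kruppel-like and Sp genes 6 and 4 were higher in the IRF8-labelled and KLF4-labelled cells (5 and 6 with median scaling). Klf6 was 6.06-fold and Klf8 2.48-fold higher in IRF8-labelled cells beside Klf4. Klf2, a close relative of KLF4, read 0.31 and 0.12 in control, 0.29 and -0.04 in IRF8-labelled and 1.68 and 1.44 in KLF4-labelled cells: only KLF4-labelled cells lay above control, 2.71-fold over IRF8-labelled cells (log2 -1.44 ± 0.16 (SE), adjusted p = 0.00190). Early response genes were higher in IRF8-labelled cells in 10 of 17 and in KLF4-labelled cells in 4 (median difference 0.80; 4 and 3 with spike-in scaling). Egr2 and Egr1, factors of macrophage differentiation, were 21.6-fold and 17.0-fold and Atf3 6.52-fold higher. Nr4a1, which nonclassical monocytes need, read 1.22 and 1.49 in control, 2.86 and 3.01 in IRF8-labelled and 4.56 and 4.55 in KLF4-labelled cells, above control in both and 3.08-fold higher in KLF4-labelled cells (log2 -1.62 ± 0.12 (SE), adjusted p = 6.37e-04), and Myc was 4.09-fold higher there. Of 40 myeloid factors 14 (35%) and 8 (20%) were higher in the IRF8-labelled and KLF4-labelled cells. Bcl6, Id3 and Batf3 were 13.1-fold, 14.7-fold and 7.29-fold higher in IRF8-labelled cells. On the KLF4 side, after Gfi1, stood Nr1h3, the oxysterol receptor LXR alpha, which read -2.77 and -2.41 in control, -2.73 and -2.58 in IRF8-labelled and -0.63 and -0.31 in KLF4-labelled cells (4.54-fold). Spi1, which encodes PU.1, differed by 0.37 ± 0.09 (SE), adjusted p = 0.0245, a call lost with spike-in scaling (0.741). Over the factors without their own p SE reached 0.30 and adjusted p 0.0339.

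Interferon response genes were divided. Of 35 tested 18 were higher in IRF8-labelled and 7 in KLF4-labelled cells (median difference 0.63; 9 and 4 with spike-in scaling). Oasl1, an antiviral gene, read -5.40 and -4.59 in control, 0.41 and 0.27 in IRF8-labelled and -4.71 and -5.62 in KLF4-labelled cells (45.4-fold, with 1 KLF4-labelled array above background), Oasl2 was at least 5.75-fold and Ifi27l2a 11.0-fold higher, and Usp18 and Gbp2 differed by 2.44 and 2.40. Oas2, which makes the activator of ribonuclease L, read -3.72 and -3.46 in control, -2.82 and -2.72 in IRF8-labelled and 0.40 and 0.46 in KLF4-labelled cells, 9.17-fold higher in KLF4-labelled cells (log2 -3.20 ± 0.12 (SE), adjusted p = 1.30e-04), and Rtp4 and Ifit2 differed by -1.57 and -1.01. For the genes named by their difference SE reached 0.59 and adjusted p 0.00476.

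Growth genes were lower in IRF8-labelled cells. Of 35 genes of DNA replication and mitosis 31 were higher in KLF4-labelled cells and E2f2 alone in IRF8-labelled cells, with an adjusted p of 0.0179 and 0.331 with spike-in scaling (median difference -0.94), and their median lay -1.30 from control in IRF8-labelled and -0.34 in KLF4-labelled cells. Cdc25a, a phosphatase that lets cells enter S phase, read 4.36 and 4.65 in control, 2.45 and 2.78 in IRF8-labelled and 3.88 and 4.11 in KLF4-labelled cells (2.60-fold), and the mitotic kinesin gene Kif11, Cdc45 and the helicase subunit gene Mcm2 were 2.59-fold, 2.54-fold and 2.53-fold apart. Mki67, the antigen Ki67, differed by -0.81 ± 0.08 (SE), adjusted p = 0.00150. Of 24 ribosome biogenesis genes 20 were higher in KLF4-labelled and 0 in IRF8-labelled cells (median difference -0.99), with Polr1b of RNA polymerase I 3.17-fold, Dkc1 (dyskerin) 2.68-fold, Gnl3 2.23-fold and Nolc1 2.17-fold apart. Over the growth genes SE reached 0.23 and adjusted p 0.00708. Of 14 genes of D-type cyclins, their kinases and the kinase inhibitors 8 were higher in IRF8-labelled and 4 in KLF4-labelled cells (4 and 1 with spike-in scaling). The inhibitors higher in IRF8-labelled cells were Cdkn2b (p15), Cdkn1a (p21), Cdkn2a, Cdkn1b and Cdkn2c, by 2.48, 1.57, 1.12, 0.63 and 0.90, along with Ccnd1. Cdkn2d was not called (-0.63 ± 0.26 (SE), adjusted p = 0.103; 0.0375 with the replicate block), and Cdk4 and Cdk6 were higher in KLF4-labelled cells (-0.60 and -0.51). Of 30 apoptosis genes and p53 targets 15 and 7 were higher in the IRF8-labelled and KLF4-labelled cells (7 and 5 with spike-in scaling). The p53 targets Btg2, Trp53inp1 and Bbc3 were 4.42-fold, 4.14-fold and 4.01-fold and the survival gene Bcl2l1 2.84-fold higher in IRF8-labelled cells, whereas Trp53 itself, Gadd45a and Fas were higher in KLF4-labelled cells (-0.92, -1.0 and -1.0). Of 13 stem and progenitor genes 7 were higher in KLF4-labelled and 3 in IRF8-labelled cells (median difference -0.52). Prom1 read 4.25 and 4.55 in control, 0.42 and 0.68 in IRF8-labelled and 3.34 and 3.62 in KLF4-labelled cells and Myb 6.11 and 6.15 in control, 3.47 and 3.47 in IRF8-labelled and 5.67 and 5.62 in KLF4-labelled cells, 7.61-fold and 4.52-fold apart, so KLF4-labelled cells lay nearer to control. Cd34, however, was above background in IRF8-labelled cells alone (at least 5.61-fold). For the cell cycle, apoptosis and progenitor genes SE reached 0.36 and adjusted p 0.0388.

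**Figure D5:**
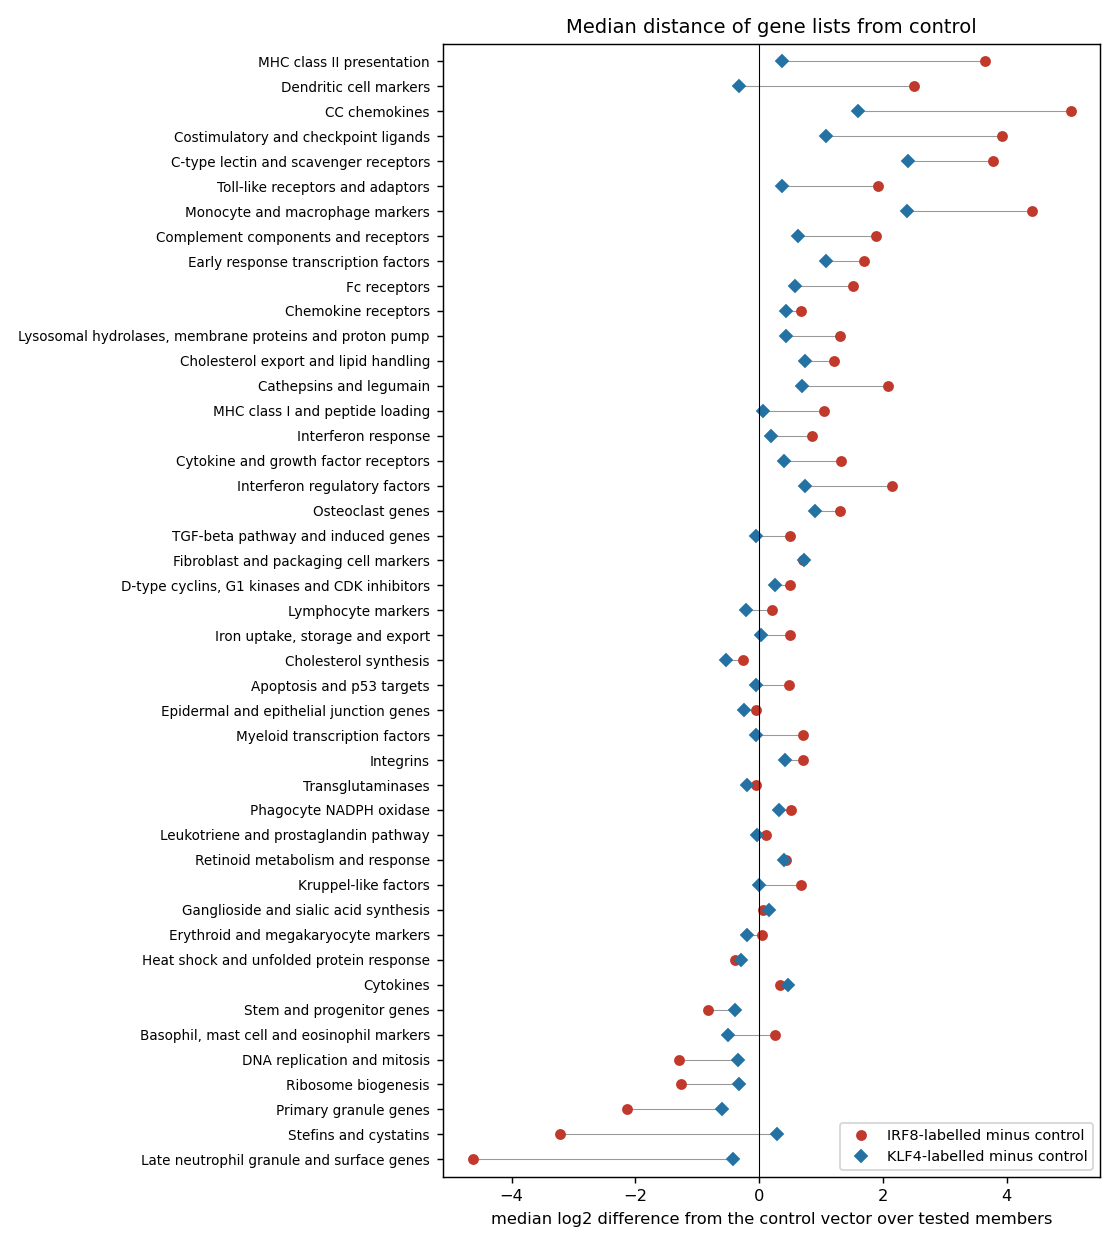
Median log2 difference from the control vector over the tested members of each gene list, for IRF8-labelled (red circles) and KLF4-labelled cells (blue diamonds), which share the control arrays. The late neutrophil list lies at -4.63 and -0.42 and the class II list at 3.66 and 0.37, with the KLF4-labelled value nearer to 0 in both.

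Metabolic lists differed in size, with a median difference of 0.27 for cholesterol synthesis and 0.74 for cholesterol export and lipid handling. Of 20 cholesterol synthesis genes 7 were higher in IRF8-labelled cells, Msmo1 and Hmgcs1 among them (0.91 and 0.59), and Fdps was higher in KLF4-labelled cells (-0.81); with spike-in scaling 0 and 1 passed. Of 16 genes of cholesterol export and lipid handling 9 and 3 were higher in the IRF8-labelled and KLF4-labelled cells (median difference 0.74; 5 and 1 with spike-in scaling). Fabp4, a fatty acid carrier of macrophages, read -6.51 and -5.95 in control, 3.44 and 3.19 in IRF8-labelled and 0.28 and 0.18 in KLF4-labelled cells, 8.47-fold apart (log2 3.08 ± 0.21 (SE), adjusted p = 4.69e-04), and the lysosomal phospholipase gene Pld3 was 4.15-fold higher. Of 15 iron genes 6 (40%) were higher in IRF8-labelled and 3 (20%) in KLF4-labelled cells (1 and 3 with spike-in scaling). The shares over all genes tested were 23.7% and 26.8%. Hmox1, which breaks down haem, was 3.14-fold higher in IRF8-labelled cells. Higher in KLF4-labelled cells were Lcn2, which binds iron carriers of bacteria (5.48-fold), the transferrin receptor gene Tfrc (3.11-fold) and the iron exporter gene Slc40a1 (2.98-fold). The phagocyte oxidase gave 1 and 3 of 7. Cybb, its membrane subunit, read -0.37 and -0.34 in control, 2.13 and 1.06 in IRF8-labelled and 2.91 and 2.89 in KLF4-labelled cells and was 2.47-fold higher in KLF4-labelled cells (adjusted p = 0.0299; 0.107 without either KLF4-labelled array), and Ncf1 and Rac2 were higher there too (-1.14 and -0.69). Of 17 genes of the heat shock and unfolded protein responses 5 were higher in KLF4-labelled cells, Chac1, Asns and Hsp90aa1 among them (-1.29, -0.85 and -0.81), and 2 in IRF8-labelled cells, led by Ddit3 (1.66; 1 and 1 with spike-in scaling). Among the metabolic and stress genes SE reached 0.26 and adjusted p 0.0326.

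Markers of other lineages were read for cells that the cultures could hold. Of 15 osteoclast genes 7 (46.7%) were higher in IRF8-labelled and 4 (26.7%) in KLF4-labelled cells, but 2 and 4 with spike-in scaling. The shares over all genes tested were 23.7% and 26.8%. Mmp9 and Car2 were at least 8.09-fold and 3.63-fold higher in KLF4-labelled cells beside Itgb3 and Acp5, Ocstamp 3.48-fold higher in IRF8-labelled cells, and the fusion gene Dcstamp was not called (-0.07 ± 0.16 (SE), adjusted p = 0.754, 95% interval -0.49 to 0.35). Of 9 basophil, mast cell and eosinophil genes Mcpt8, Prg2, Hdc and Epx were higher in KLF4-labelled cells, Mcpt8 by 7.85-fold and Prg2 by at least 2.04-fold, and Il1rl1 (54.1-fold) and Hpgds (at least 10.5-fold) in IRF8-labelled cells, and the defining genes Cpa3, Fcer1a, Ms4a2 and Gata2 were not tested. Of 9 erythroid and megakaryocyte genes Epor, Vwf and Tfrc were higher in KLF4-labelled cells, Vwf at -5.49 and -4.02 in control, 1.14 and 1.30 in IRF8-labelled and 2.96 and 3.1 in KLF4-labelled cells (-1.81 ± 0.47 (SE), adjusted p = 0.0281; up to 0.113 with an array left out), and Hba-a1 was higher in IRF8-labelled cells (1.55), with Pf4 and Itga2b not tested. Of 20 lymphocyte genes 7 were tested and Cd79a and Cd8a were not. Blnk and Il7r were higher in IRF8-labelled cells (Blnk by at least 35.0-fold) and Lck and Cd3d in KLF4-labelled cells (4.89-fold and at least 2.33-fold). Of 15 fibroblast and packaging cell markers 5 were tested, and Col3a1, Dcn, Lum and Pdgfra were not. Vim, Acta2 and Col1a2 were higher in IRF8-labelled cells (1.70, 0.92 and 0.51, the last lost under several alternatives, up to an adjusted p of 0.554 with normexp) and Thy1 in KLF4-labelled cells. The summed signal of the 5 was 196 to 249 times the 75th percentile on IRF8-labelled, 71.7 to 73.9 on KLF4-labelled and 40.4 to 42.0 on control arrays, mostly Vim, and the part of such cells in the Thy1 result was not tested. For the markers without their own p SE reached 0.32 and adjusted p 0.0413.

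Some genes that lay far above control were close between the factors. These were picked after their values were seen, from among the genes within 2-fold of each other and farthest above control in both. Not every gene at the top of that order is given. Anpep, aminopeptidase N of myeloid cells, read -6.65 and -5.61 in control, 3.20 and 3.35 in IRF8-labelled and 3.19 and 3.17 in KLF4-labelled cells, a difference of 0.10 (95% interval -0.78 to 0.98). Igf2r, the receptor that sorts lysosomal enzymes, read -6.39 and -6.43 in control, 0.59 and 0.64 in IRF8-labelled and 0.64 and 0.72 in KLF4-labelled cells and differed by -0.06 (95% interval -0.28 to 0.15). S100a4, a calcium-binding protein, read -1.61 and -1.48 in control, 6.97 and 6.89 in IRF8-labelled and 6.57 and 6.49 in KLF4-labelled cells, and its small difference passed the test (0.40 ± 0.09 (SE), adjusted p = 0.0193; 0.201 with median scaling). Il18, an interleukin of the interleukin 1 family, read -5.37 and -5.72 in control, 0.35 and 0.25 in IRF8-labelled and 0.70 and 0.66 in KLF4-labelled cells and differed by -0.38 (95% interval -0.74 to -0.03), adjusted p = 0.0730 and 0.0316 with the replicate block. That the arrays of both factors lay closer to each other than to control follows from how these genes were picked.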

How the data were processed

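Total RNA of 6 samples, 2 in each of 3 groups, was hybridised with Cy3 to 1-colour Agilent mouse arrays. The deposited files hold, per spot, the intensity that Agilent Feature Extraction 10.7.3.1 (version per the submitters' processing notes) wrote after subtracting background, not scaled between arrays. Control spots were left out of 62976 spots, and the 59305 gene spots, averaged where a probe was repeated, gave 55681 gene probes. Of these, 75 whose spots were all flagged as outliers on an array were then dropped. Of 28353 probes with a RefSeq form of accession, 26728 matched a gene of RefSeq on GRCm38.p6, and 20263 genes resulted. Each intensity was taken to log2 and the 75th percentile of the array's gene spots subtracted. A gene was read by its brightest probe (5396 had several) and 13247 genes were tested, those that were well above background in both replicates of 1 group or more.

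limma 3.58.1 in R 4.3.3 (lmFit, eBayes, 2-sided) fitted the 3 groups together with 3 residual degrees of freedom, and p-values were adjusted by Benjamini-Hochberg over all genes tested, with a threshold of 0.05. The fit was tested on simulated data. A fold against a group not above background uses, per array, the higher of the lowest signal well above background and the gene's own. The members and the 46 gene lists were chosen with earlier results of these data known. Genes named are Irf8, Klf4 and the 7 markers, the 12 largest differences each way of genes above background on all 4 arrays compared, the 8 largest bounds each way of genes above it in 1 group, and the largest called differences of each list (up to 4); other members named were picked after their values were seen. Near-identical genes may share a probe, and where probes lie in a gene is not given in the sources used here.

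The series' design text calls the 2 experiments independent, and each replicate number is also a slide. Same-numbered arrays deviated together (r = 0.282, 0.321 and 0.391 for the 3 pairs of groups), so the number pairs them, and the fit with it as a block is an alternative. P-values measure the spread between these samples. Other alternatives were the scaling, background correction, filter, probes, the deposited value table (each column's 75th percentile is 506.002, so its scaling is known and centring of genes was not seen), and leaving out each array. normexp used median spot signals, since the files hold no column of mean signals. Some genes are not reported here.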

Additional observations from a re-analysis of the deposited data

How the results depend on the processing

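Scaling moved the counts most. Genes higher in IRF8-labelled cells numbered 2079 with median scaling and 1121 with spike-in scaling (8 probes), genes higher in KLF4-labelled cells 1550 with spike-in scaling, and genes within 2-fold 3786 with spike-in scaling. With 1 array left out, 2207 to 3056 genes were higher in IRF8-labelled and 2410 to 3429 in KLF4-labelled cells, and 6569 to 7967 lay within 2-fold. The replicate block gave 4207 and 4703, and of the calls followed ended that of Jup only, while Ciita, Cd274, H2-K1, Ccl3, Mpo, Cdkn2d and Il18 passed with it. Of 270 calls followed 62 were lost under at least 1 alternative, and none of the 270 changed its sign except Nkg7 (-1.38 with the mean of its probes). Spike-in scaling ended 40, among them Irf8, Cxcl10, F13a1, Msmo1, Hmgcs1, Rac2, Asns, Hsp90aa1, Acta2, Col1a2, Anxa1, Arg2, B4galt5, Cdk4, Cdk6, Cdkn1b, Cdkn2c, Clec4e, E2f2, H2-D1, H2-Eb2, Irf1, Irf3, Mki67, Nkg7, Rfxank, Rfxap, S100a4, Spi1, Tgfb1, Tnfsf13b, Tnfsf14, Ugcg, Tjp3 and St14. Median scaling ended 8, among them Hmgcs1 and Cdkn1b. normexp ended 21: Il12a, Il1a, Tlr11, Cd209a, Jup, Prg2, Cd3d, Col1a2, Adgre4, Cd86, Clec12a, Cst6, Cxcr2, E2f2, Irf3, Mertk, Rfxank, Rfxap, Rtp4, Spi1 and Tnfsf13b. Testing all genes without the filter ended 21, and leaving out an IRF8-labelled or KLF4-labelled array between 17 and 24, Ctsg, Cybb, Clec5a, Chac1, Fdps, Vwf and Pdgfb among them. The cause of these losses was not tested. Genes not called changed sign as follows. Against control, Ccr7 in KLF4-labelled cells was -0.0554 with normexp, and Klf4 there -0.00107 with normexp and -0.17 to 0.17 with 1 array left out. Mall in IRF8-labelled cells was 0.0025 with quantile normalization and -0.66 to 0.32 with 1 array left out. In the direct comparison Anpep was -0.0632 with median and -0.0535 with spike-in scaling, Siglech -0.0121 and -0.0024, and Csf3r -0.11 and -0.10. With 1 array left out, Csf3r ran from -0.13 to 0.23, St8sia1 from -0.24 to 0.65, Siglech from -0.0877 to 0.39 and Dcstamp from -0.23 to 0.0935. With 2 arrays a group, dim genes have only a bound, and a gene below background in every group was not tested.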

Other observations

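Probes without a gene name also separated the groups. Of 6101 tested probes named by a genome region, 905 were higher in IRF8-labelled and 750 in KLF4-labelled cells (27.1% called), and of 5875 other probes without a name 720 and 975 (28.9%). The share was 44.3% for the 17380 tested probes matched to a gene. What these regions transcribe is not known here.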
